A study of Mus musculus with 2 samples.

Results

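The genes described here are Aire and 8 further transcription regulators of thymic epithelium: Fezf2, Foxn1, Trp63, Prdm1, Klf4, Elf3, Elf5 and Ehf. They were chosen by name, and each matched 1 row of a deposited gene table with 23997 rows. A deposited isoform table with 33295 rows held 31 isoforms of these 9 genes. RNA of MHC class II-high medullary cells of the thymic epithelium (mTECs) was sequenced in 2 libraries, 1 labelled Aire-KO (genotype Aire-/-) and 1 labelled WT. Both came from C57BL/6 thymus, from pooled mice and a flow cytometric sort, with polyadenylated RNA and a stranded kit. How many mice were pooled, how old they were, their sex and which Aire allele was targeted: none of this is given in the sources used here. There being 1 library per genotype, there is no replicate check and no test of genotype. Each difference compares 2 libraries, and intervals cover counting error only.

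mTECs transcribe a wide range of peripheral tissue genes, so that T cells reactive to the body's own proteins can be removed or diverted in the thymus. Aire drives a large part of this transcription, and the zinc finger protein Fezf2 drives another part. Foxn1, a forkhead factor, and Trp63 (p63) are needed for the thymic epithelium to form and persist. Prdm1 (Blimp-1), Klf4 and the epithelial Ets factors Elf3, Elf5 and Ehf are known mainly from the differentiation of skin and glandular epithelia. mTECs that have passed the Aire-expressing stage can take on features of keratinising skin.

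Transcripts of several of these genes differ by short coding blocks or by their start site. The sequences are shown because each pair marks a difference that the isoform table quantifies. For Aire, on the minus strand of chromosome 10, isoforms differ at the end of exon 6 by 12 nt (chr10:78039931-78039942), at the start of exon 8 by 3 nt (chr10:78037986-78037988), and by exon 10 of 177 nt (chr10:78035657-78035833). For Elf3, on the minus strand of chromosome 1, the 2 isoforms differ by 60 nt (chr1:135257227-135257286). Capitals mark the block that is kept or absent, with the flanking bases in lower case. For Trp63, on the plus strand of chromosome 16, the first coding exons of the TA start (chr16:25684290-25684351) and of the deltaN start (chr16:25802060-25802101) are given, with the start codon in capitals. Sequences are from GENCODE M21 transcripts on GRCm38, the same assembly as mm10.
Aire exon 6 end, 12 nt kept: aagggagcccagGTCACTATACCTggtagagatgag
Aire exon 6 end, 12 nt absent: aagggagcccagggtagagatgag
Aire exon 8 start, 3 nt kept: caggttaaccagAAGaacgaggatgag
Aire exon 8 start, 3 nt absent: caggttaaccagaacgaggatgag
Aire exon 10 included: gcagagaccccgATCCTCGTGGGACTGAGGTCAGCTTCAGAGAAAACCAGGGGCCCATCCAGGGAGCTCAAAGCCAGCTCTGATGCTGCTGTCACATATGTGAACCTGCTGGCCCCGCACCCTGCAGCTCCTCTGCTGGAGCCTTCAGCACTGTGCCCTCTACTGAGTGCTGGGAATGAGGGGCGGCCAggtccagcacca
Aire exon 10 absent: gcagagaccccgggtccagcacca
Elf3 60 nt kept: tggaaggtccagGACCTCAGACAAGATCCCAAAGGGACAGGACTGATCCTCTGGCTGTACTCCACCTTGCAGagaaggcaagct
Elf3 60 nt absent: tggaaggtccagagaaggcaagct
Trp63 first coding exon, TA: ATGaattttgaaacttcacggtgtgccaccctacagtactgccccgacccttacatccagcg
Trp63 first coding exon, deltaN: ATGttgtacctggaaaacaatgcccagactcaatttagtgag

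Levels are the authors' deposited FPKM values, which scale a fragment count by transcript length and by library size. How library size was scaled is not given in the sources used here. A library size was fitted to whole-fragment steps in the low values. It was about 55000000 fragments in the library labelled Aire-KO and 48450000 in the library labelled WT. This size includes any scaling by the authors' tool, so it need not equal the number of fragments sequenced. Summed FPKM over all genes with an estimate was 551619 for the library labelled Aire-KO and 523609 for the library labelled WT. mTEC markers were abundant in both. Epcam stood at 295.7 FPKM in the library labelled Aire-KO and 362.7 FPKM in the library labelled WT, and the MHC class II gene H2-Aa at 11948 FPKM under the Aire-KO label and 8398 FPKM under the WT label. Of 13 mTEC markers with a row, none differed by 2-fold. Markers of other cells were detected as well, and none of them was listed at 0. Ptprc, the pan-leukocyte antigen, had 0.626 FPKM in the library labelled Aire-KO and 1.95 FPKM in the library labelled WT, and the T cell gene Cd3e had 0.583 FPKM under the Aire-KO label and 0.913 FPKM under the WT label.

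Ratios are log2 of the FPKM in the library labelled Aire-KO over that in the library labelled WT, with 0.1 FPKM added to both, so that changes of low genes are understated. A gene is called lower or higher in the library labelled Aire-KO at a 2-fold difference where the mean is at least 0.5 FPKM, a description of size without any test. All 9 regulators passed the minimum. Of the 9, 4 were lower (Elf5, Elf3, Klf4 and Prdm1), 1 was higher (Aire) and 4 were within 2-fold (Fezf2, Foxn1, Trp63 and Ehf). Over all 15906 genes past the minimum, 20.5% were lower, 7.09% were higher and 27.6% passed in either direction. Among the 9792 genes with a mean of at least 5 FPKM, 11% were lower and 6.62% were higher. The median log2 ratio was -0.63 over the 9 regulators and 0.05 over all genes. Signs were mixed, with 5 of the 9 below 0 and 4 above 0, and 46.7% of all genes past the minimum were below 0. In the authors' deposited table none of the 9 was called significant, and their q-values lay between 0.586 (Klf4) and 0.999 (Fezf2).

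**Figure D1:**
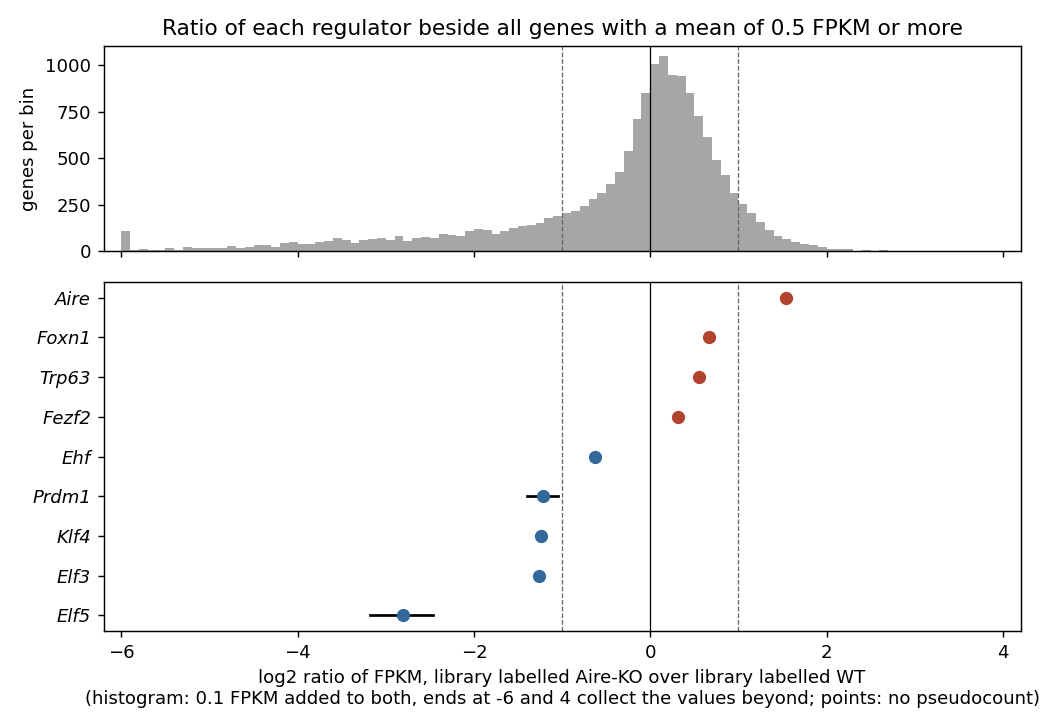
The upper panel counts the 15906 genes past the minimum level by log2 ratio, library labelled Aire-KO over library labelled WT, with 0.1 FPKM added to both. The lower panel gives each regulator without a pseudocount, with its 95% counting interval as a line (often narrower than the point), and dashed lines at 2-fold: Aire lies to the right of them, and Elf5, Elf3, Klf4 and Prdm1 lie to the left.

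Aire (chr10:78030022-78043610, minus strand, GRCm38) was the most abundant of the 9 in the library labelled Aire-KO, at 640.2 FPKM (95% counting interval 635.1 to 645.4), against 220.6 FPKM (217.4 to 223.9) in the library labelled WT. The transcript of the targeted gene was thus 2.90-fold higher in the library labelled Aire-KO. A gene value covers the whole transcript and the allele is not given, so these values do not check the genotype labels, and directions are given by library label. Aire ranked 94 of the 15906 genes in the library labelled Aire-KO and 361 in the library labelled WT. Its ratio was above that of 98.2% of them. Aire and Dnmt3l, which lies on the plus strand, share 67 of the 3825 exon bases of Aire. Whether strand was used in counting is not given in the sources used here, so reads in those 67 bases cannot be assigned to either gene.

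The higher level of Aire was spread over its abundant isoforms. Of 13 isoforms in the table, the 6 most abundant in the library labelled Aire-KO were between 2.45-fold and 3.43-fold higher there. The full-length form NM_009646, of 552 codons, had 196.7 FPKM in the library labelled Aire-KO and 68.5 FPKM in the library labelled WT. NM_001271549, which lacks the 3 nt of exon 8 and has 551 codons, had 226.3 FPKM in the library labelled Aire-KO and 73.6 FPKM in the library labelled WT. These led in both libraries, and the loss of 3 nt keeps the reading frame. NM_001271550, which lacks the 12 nt of exon 6 and has 548 codons, had 74.3 FPKM in the library labelled Aire-KO and 21.7 FPKM in the library labelled WT. NM_001271551 lacks both blocks and has 547 codons, and stood at 68.4 FPKM in the library labelled Aire-KO and 25.3 FPKM in the library labelled WT. The 2 most abundant isoforms without exon 10 were 2.45-fold (NM_001271552, 493 codons) and 3.27-fold (NM_001271553, 492 codons) higher in the library labelled Aire-KO.

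The isoform next in abundance was not higher. NM_001271556, of 409 codons, had 5.30 FPKM in the library labelled Aire-KO and 6.18 FPKM in the library labelled WT, and took 0.829% of Aire in the library labelled Aire-KO and 2.80% in the library labelled WT. It is the main form that skips both exon 10 and exon 11. Isoforms NM_001271558 and NM_001271559 were listed at 0 in both libraries. The remaining 4 had at most 1.16 FPKM in the library labelled Aire-KO and at most 0.534 FPKM in the library labelled WT.

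Summed over the 12 coding isoforms, the choice at each variable block was close in the 2 libraries. The 3 nt at the start of exon 8 were kept in 49.4% of Aire FPKM in the library labelled Aire-KO and 51.1% in the library labelled WT. The 12 nt at the end of exon 6 were kept in 77.7% in the library labelled Aire-KO and 78.7% in the library labelled WT. Neither block moved by more than 2 percentage points. Exon 10 was included in 88.5% in the library labelled Aire-KO and 85.9% in the library labelled WT, with 73.4 FPKM under the Aire-KO label and 31.0 FPKM under the WT label in isoforms without it. Exon 11 was included in 99.1% in the library labelled Aire-KO and 97.2% in the library labelled WT. These shares rest on how the authors' tool divided reads among isoforms that share most of their bases.

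Fezf2 (chr14:12338992-12346803, minus strand) was high in both libraries and differed little. It had 261.3 FPKM (258.3 to 264.4) in the library labelled Aire-KO and 209.5 FPKM (206.6 to 212.5) in the library labelled WT, a log2 ratio of 0.32 (counting interval 0.29 to 0.35). Its ratio was above that of 66.7% of the 15906 genes. Fezf2 has 1 isoform in the table, of 455 codons. Aire and Fezf2, the 2 regulators known to drive peripheral tissue genes in mTECs, stood at a level ratio of 2.45 (Aire over Fezf2) in the library labelled Aire-KO and 1.05 in the library labelled WT.

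Among 10 genes listed as linked to Fezf2, 7 were lower in the library labelled Aire-KO, 1 was higher and 2 were within 2-fold. The median log2 ratio was -1.70. The 2 within 2-fold were Nol4 and the chromatin remodeler Chd4. Resp18, a neuroendocrine secretory protein, had 219.6 FPKM in the library labelled Aire-KO and 561.2 FPKM in the library labelled WT. The keratin gene Krt10 had the lowest ratio, at 14.3 FPKM in the library labelled Aire-KO and 372.5 FPKM in the library labelled WT. Maoa, a monoamine oxidase, was the higher one, at 23.5 FPKM in the library labelled Aire-KO and 10.6 FPKM in the library labelled WT. Thus 7 of the 10 listed genes were lower, against 20.5% of all genes, and Fezf2 itself was 1.25-fold higher. This list and the others below were drawn up with earlier results of these data known.

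Foxn1 (chr11:78357577-78386783, minus strand) had 66.5 FPKM (65.3 to 67.7) in the library labelled Aire-KO and 41.8 FPKM (40.8 to 42.9) in the library labelled WT. Its log2 ratio of 0.67 (counting interval 0.62 to 0.72 before any pseudocount) was inside 2-fold. The table splits it into 2 isoforms, and the leading one differed between libraries. NM_001277290 made 51.0% of Foxn1 in the library labelled Aire-KO and 41.6% in the library labelled WT, and NM_008238 took the rest, with 32.6 FPKM under the Aire-KO label and 24.4 FPKM under the WT label. Both identifiers link to 1 GENCODE transcript, so the bases that set them apart cannot be given here.

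Among 15 thymic epithelial genes known to be linked to Foxn1, 1 was lower, 1 was higher and 13 were within 2-fold, with a median log2 ratio of 0.49. The most abundant, the chemokine gene Ccl25, had 809.2 FPKM in the library labelled Aire-KO and 546.4 FPKM in the library labelled WT. Dll4, the Notch ligand that commits progenitors to the T lineage, had 5.21 FPKM in the library labelled Aire-KO and 13.4 FPKM in the library labelled WT. Kitl, the ligand of the receptor Kit, had 10.9 FPKM in the library labelled Aire-KO and 4.63 FPKM in the library labelled WT. The list thus held 1 gene past 2-fold on each side, against 20.5% lower and 7.09% higher over all genes.

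Trp63 (chr16:25683763-25892088, plus strand) had 40.6 FPKM (39.8 to 41.4) in the library labelled Aire-KO and 27.6 FPKM (26.8 to 28.3) in the library labelled WT, a log2 ratio of 0.56 (counting interval 0.51 to 0.61). Its transcripts begin at 2 sites 118151 bp apart. The upstream site gives TA forms, which carry an N-terminal transactivation domain, and the downstream site gives deltaN forms, which lack it and are the main p63 of basal epithelial cells. The 5 deltaN isoforms summed to 37.7 FPKM in the library labelled Aire-KO and 24.6 FPKM in the library labelled WT. The 3 TA isoforms summed to 2.91 FPKM in the library labelled Aire-KO and 2.94 FPKM in the library labelled WT.

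By these estimates the difference in Trp63 lay in the deltaN forms, with a log2 ratio of 0.61 against -0.01 for the TA forms. Both sums rest on how the authors' tool divided reads among the isoforms of the 2 starts. The deltaN share was 92.8% in the library labelled Aire-KO and 89.3% in the library labelled WT. The deltaN isoforms NM_011641 (15.2 FPKM under the Aire-KO label and 9.75 FPKM under the WT label) and NM_001127264 (15.2 FPKM under the Aire-KO label and 8.15 FPKM under the WT label) led in both libraries. NM_001127263 went the other way, at 0.411 FPKM in the library labelled Aire-KO and 3.34 FPKM in the library labelled WT. It links to the same GENCODE transcript as NM_001127265 (4.93 FPKM in the library labelled Aire-KO and 2.43 FPKM in the library labelled WT), so how reads were split between them is uncertain. NM_011641 and NM_001127262 share a link in the same way.

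Among 15 basal epithelial genes known to be linked to p63, 3 were lower (Krt15, Perp and Sfn), 2 were higher (Itgb4 and Jag2) and 10 were within 2-fold, with a median log2 ratio of 0.30. Over all genes past the minimum, 20.5% were lower and 7.09% were higher. The basal keratin gene Krt5 had 599.1 FPKM in the library labelled Aire-KO and 661.4 FPKM in the library labelled WT. Itgb4, the beta 4 integrin of hemidesmosomes, had the highest ratio, at 51.4 FPKM in the library labelled Aire-KO and 21.6 FPKM in the library labelled WT. Krt15, another basal keratin gene, had the lowest, at 6.80 FPKM in the library labelled Aire-KO and 47.8 FPKM in the library labelled WT.

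**Figure D2:**
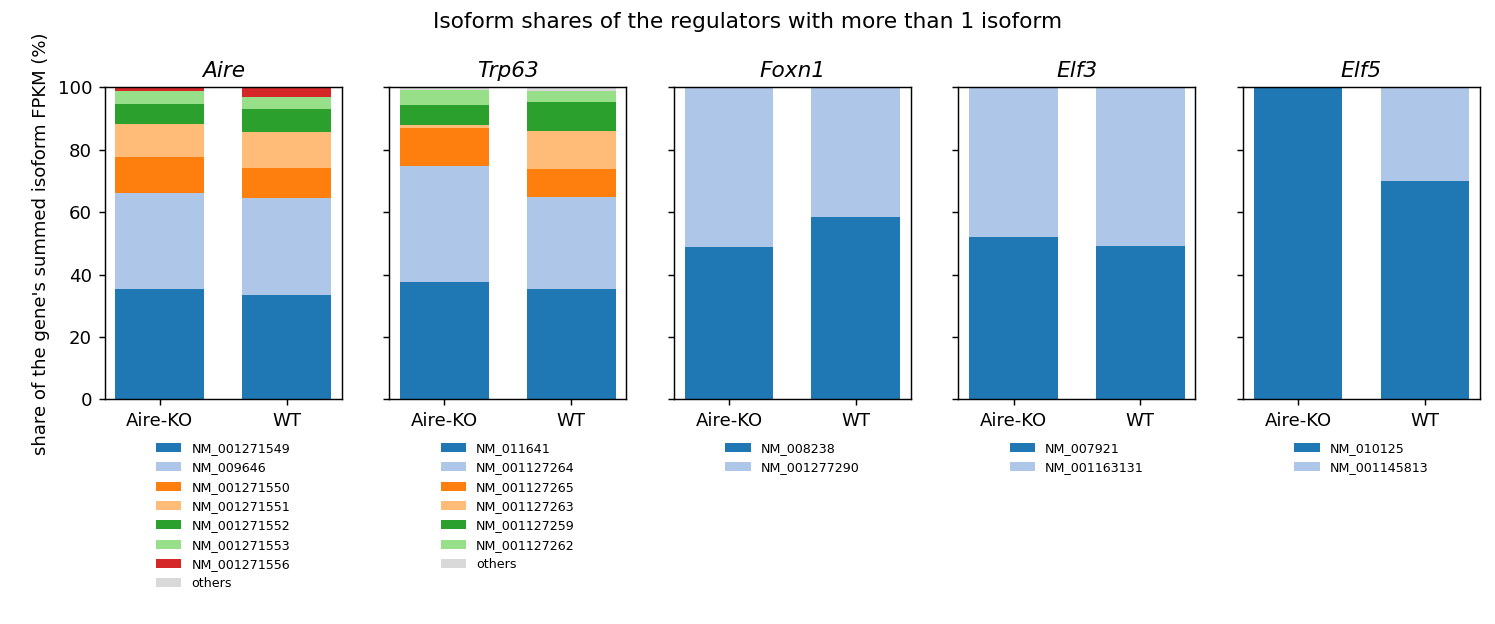
Each bar divides 1 regulator into the shares (%) that its isoforms took of the summed isoform FPKM, with the library labelled Aire-KO to the left of the library labelled WT; the 4 regulators with a single isoform are left out. The bars of Aire are alike in the 2 libraries, whereas the upstream-start isoform of Elf5 (NM_001145813) fills 30.2% of the bar for the library labelled WT and is not visible for the library labelled Aire-KO.

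The regulators known from differentiating epithelia were all below 0 on the log2 scale, as were 46.7% of all genes past the minimum. Klf4 (chr4:55527137-55532475, minus strand), a zinc finger factor needed for the skin barrier, had 48.1 FPKM (47.0 to 49.2) in the library labelled Aire-KO and 113.7 FPKM (111.9 to 115.5) in the library labelled WT. Its log2 ratio was -1.24 (counting interval -1.28 to -1.20), or 2.36-fold lower. It ranked 2006 in the library labelled Aire-KO and 758 in the library labelled WT. The level of Klf4 over Trp63 was 1.19 in the library labelled Aire-KO and 4.13 in the library labelled WT.

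Elf3 (chr1:135253574-135258472, minus strand), an Ets factor of simple and stratified epithelia, was the most abundant of the 9 in the library labelled WT. It had 102.1 FPKM (100.1 to 104.1) in the library labelled Aire-KO and 245.0 FPKM (241.7 to 248.4) in the library labelled WT, a log2 ratio of -1.26 (counting interval -1.30 to -1.23). Both isoforms were lower by similar amounts. NM_001163131, with the 60 nt block and 391 codons, had 49.1 FPKM in the library labelled Aire-KO and 124.3 FPKM in the library labelled WT. NM_007921, without it and with 371 codons, had 53 FPKM in the library labelled Aire-KO and 120.8 FPKM in the library labelled WT. The leading isoform by FPKM thus differed between libraries, with each share moving by 2.64 percentage points. By share of fragments, NM_001163131 led in both, with 50.8% in the library labelled Aire-KO and 53.5% in the library labelled WT. Elf3 shares 162 of its 2217 exon bases with Gm26642 on the other strand, and reads there cannot be told apart.

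Elf5 (chr2:103412098-103450989, plus strand), an Ets factor of mammary and trophoblast epithelium, was the lowest of the 9 in the library labelled Aire-KO and had the lowest ratio. It had 0.704 FPKM (0.556 to 0.878) in the library labelled Aire-KO and 4.94 FPKM (4.51 to 5.39) in the library labelled WT. These values rest on about 78 fragments in the library labelled Aire-KO and 494 in the library labelled WT. The log2 ratio was -2.65, and -2.81 before the pseudocount (counting interval -3.17 to -2.46), or 7.01-fold lower. Only 8.39% of all genes past the minimum had a lower ratio.

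Elf5 begins at 2 sites 12374 bp apart, and the upstream one was at the limit of detection in the library labelled Aire-KO. The upstream isoform NM_001145813 had 8.66e-06 FPKM, or 0 fragments, in the library labelled Aire-KO and 1.49 FPKM, or about 165 fragments, in the library labelled WT. Over the full length of this isoform, 3 fragments in the library labelled Aire-KO equal 0.0235 FPKM. Only fragments in bases that the 2 isoforms do not share can set them apart, so a count of 0 allows a higher level than this. The values of NM_001145813 are estimates of the authors' tool, which had to divide the reads that the 2 isoforms share. The downstream isoform NM_010125 had 0.704 FPKM in the library labelled Aire-KO and 3.45 FPKM in the library labelled WT, 4.90-fold lower. By these estimates the upstream start took 0.00123% of Elf5 in the library labelled Aire-KO and 30.2% in the library labelled WT. How large the share under the Aire-KO label could be was not determined. As deposited, this was the largest shift of share among the isoforms of the 9 genes. The linked GENCODE transcripts have the same 6 coding segments by coordinates, of 253 codons, so they differ outside the coding sequence.

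The promoter windows of the 2 Elf5 starts are shown because their estimated shares differ between libraries. They are RefSeq windows on GRCm38.p6, plus strand, of 250 bases before and 50 after the annotated start, at chr2:103411848-103412147 (upstream) and chr2:103423818-103424117 (downstream). The GENCODE transcript linked to the upstream isoform begins at base 103411688 of chromosome 2, so its start lies before the upstream window. All bases are in lower case because neither window holds a searched motif.
Elf5 upstream start: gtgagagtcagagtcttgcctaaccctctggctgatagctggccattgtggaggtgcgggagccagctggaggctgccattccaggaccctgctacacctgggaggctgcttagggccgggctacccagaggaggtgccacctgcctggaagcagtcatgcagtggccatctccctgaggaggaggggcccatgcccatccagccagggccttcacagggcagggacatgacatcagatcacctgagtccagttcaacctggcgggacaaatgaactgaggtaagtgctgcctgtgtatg
Elf5 downstream start: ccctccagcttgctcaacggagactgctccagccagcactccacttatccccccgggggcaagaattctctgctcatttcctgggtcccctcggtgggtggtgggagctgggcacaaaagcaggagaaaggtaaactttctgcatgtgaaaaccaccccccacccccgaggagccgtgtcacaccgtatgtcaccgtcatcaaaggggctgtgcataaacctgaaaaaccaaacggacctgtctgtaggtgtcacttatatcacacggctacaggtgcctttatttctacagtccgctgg

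The promoter table held 8 windows for 7 of the 9 genes, with none for Trp63 and Ehf. Searched on both strands, the letters TATAAA were in 1 of the 8 windows (Aire, beginning 29 bases before the start, against 13.6% of all 32851 promoters in the table) and CCAAT in 4 (Aire, Elf3, Foxn1 and Prdm1, against 37.4%). The letters GGGCGG were in 3 (Klf4, Foxn1 and Fezf2, against 35.7%) and CGGAAG, letters bound by many Ets factors, in none (against 16.9%). No motif overlapped another kind in these windows.

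Ehf (chr2:103263431-103303275, minus strand), the third epithelial Ets factor of this subfamily, lies 108.8 kb from Elf5 on chromosome 2. It had 39.6 FPKM (38.8 to 40.4) in the library labelled Aire-KO and 61.3 FPKM (60.2 to 62.4) in the library labelled WT, a log2 ratio of -0.63 (counting interval -0.67 to -0.59), inside 2-fold. The 3 epithelial Ets factors were thus all lower in value, by different amounts. The level of Elf3 over Ehf was 2.58 in the library labelled Aire-KO and 4.0 in the library labelled WT. The level of Ehf over Elf5 was 56.2 in the library labelled Aire-KO and 12.4 in the library labelled WT. The level of Elf3 over Klf4 was alike, 2.12 in the library labelled Aire-KO and 2.16 in the library labelled WT.

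Prdm1 (chr10:44437174-44528558, minus strand), a repressor that drives plasma cell and epidermal differentiation, was low in both libraries. It had 1.99 FPKM (1.81 to 2.19) in the library labelled Aire-KO and 4.64 FPKM (4.33 to 4.96) in the library labelled WT, or about 418 fragments under the Aire-KO label and 849 under the WT label. These fragment numbers are approximate, since the linked GENCODE transcript spans less than the RefSeq locus. The log2 ratio was -1.18, and -1.22 before the pseudocount (counting interval -1.39 to -1.05). With 1 FPKM added in place of 0.1 it was -0.91, inside 2-fold. Plasma cells also express Prdm1, and 3 of the 8 B and plasma cell markers were lower in the library labelled Aire-KO (Cd79a, Jchain and Sdc1) and 1 was higher (Pax5), with summed levels of 150.5 FPKM there and 248.1 FPKM in the library labelled WT. Over all genes past the minimum, 20.5% were lower and 7.09% were higher. Jchain, the joining chain of antibodies, had 0.210 FPKM in the library labelled Aire-KO and 3.87 FPKM in the library labelled WT. The part of such cells in the Prdm1 value was not tested. In bulk RNA, fewer cells of a type and less RNA per cell cannot be told apart. Whether these marker transcripts came from such cells or from mTECs, which transcribe many peripheral tissue genes, was not tested either.

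Macrophages and endothelium can express Klf4 as well. Of the 11 dendritic cell and macrophage markers past the minimum, 6 were lower and none was higher in the library labelled Aire-KO, and all 12 listed summed to 572.7 FPKM there and 807.5 FPKM in the library labelled WT. Most of these sums was Lyz2, a lysozyme of macrophages, at 436.4 FPKM in the library labelled Aire-KO and 675.5 FPKM in the library labelled WT. Of the 6 fibroblast and endothelium markers past the minimum, 2 were lower (Pecam1 and Cdh5), and all 8 listed summed to 27.5 FPKM in the library labelled Aire-KO and 36.8 FPKM in the library labelled WT. The part of such cells in the Klf4 value was not tested, nor whether these marker transcripts came from them or from mTECs. Among 10 thymocyte markers past the minimum, 3 were lower (Cd3g, Lck and Cd2), and all 12 listed summed to 22.1 FPKM in the library labelled Aire-KO and 37.4 FPKM in the library labelled WT. Of 8 cortical epithelial markers, 2 were lower (Enpep and Dll4), with summed levels of 1263 FPKM in the library labelled Aire-KO and 824.3 FPKM in the library labelled WT. Most of this was Tbata, at 1045 FPKM in the library labelled Aire-KO and 589.1 FPKM in the library labelled WT. Beside each of these marker counts, 20.5% of all genes past the minimum were lower and 7.09% were higher.

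**Figure D3:**
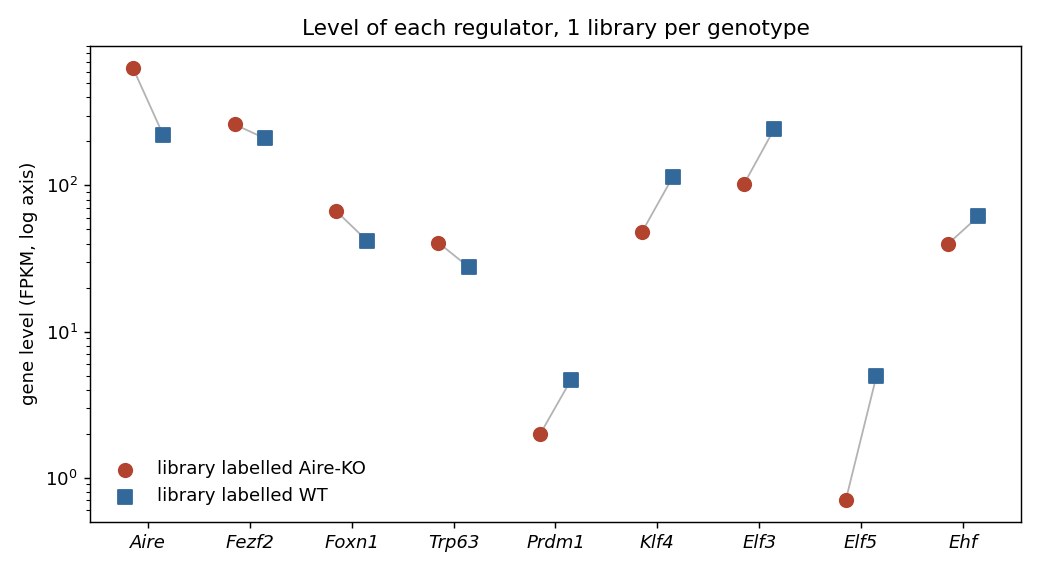
Gene level (FPKM, log axis) of each regulator, with the library labelled Aire-KO as a circle to the left of the library labelled WT as a square, 1 library per genotype. The line between the points slopes down to the right for Aire, Fezf2, Foxn1 and Trp63 and up for the other 5, and Prdm1 and Elf5 lie below 5 FPKM in both libraries.

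The order of levels differed between libraries. In the library labelled Aire-KO it was Aire, Fezf2, Elf3, Foxn1, Klf4, Trp63, Ehf, Prdm1 and Elf5, and Trp63 and Ehf were the only neighbours with overlapping counting intervals. In the library labelled WT it was Elf3, Aire, Fezf2, Klf4, Ehf, Foxn1, Trp63, Elf5 and Prdm1, and only Elf5 and Prdm1 overlapped. The 3 factors of differentiating epithelium Elf3, Klf4 and Ehf thus stood above Foxn1 and Trp63 in the library labelled WT, whereas in the library labelled Aire-KO Foxn1 stood above Klf4 and Ehf. Without libraries repeated within a genotype, the spread of these levels between animals is unknown.

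The genes whose 2 levels lay nearest to those of Aire, as the Euclidean distance over both log2 values, were Tkt, Calcb and Hspb11. Tkt had 649.5 FPKM in the library labelled Aire-KO and 271.3 FPKM in the library labelled WT, a distance of 0.30. Calcb had 516.0 FPKM in the library labelled Aire-KO and 239.5 FPKM in the library labelled WT, and Hspb11 had 499.6 FPKM under the Aire-KO label and 215.0 FPKM under the WT label. The nearest gene to each of the others was Ndufb10 for Fezf2, Cnpy3 for Foxn1, Mrpl3 for Trp63, Sdc1 for Klf4, Ldhb for Elf3, Gm13178 for Elf5, Gstt2 for Ehf and Apol10b for Prdm1, at distances of 0.01 to 0.05. Likeness over 2 libraries is a weak measure, since many genes share any pair of levels.

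The receptor RANK (Tnfrsf11a), CD40 and the lymphotoxin beta receptor signal through NF-kB to induce Aire in mTECs. Of 17 genes of this signalling past the minimum, 16 were within 2-fold and 1 was lower, against 20.5% lower over all genes. Their median log2 ratio was 0.49. Tnfrsf11a had 47.0 FPKM in the library labelled Aire-KO and 25.3 FPKM in the library labelled WT. The NF-kB subunit Relb had 231.9 FPKM in the library labelled Aire-KO and 126.8 FPKM in the library labelled WT. The subunit gene Nfkb2, the most abundant of the list, had 267.9 FPKM in the library labelled Aire-KO and 168.1 FPKM in the library labelled WT. The receptor and both subunits were thus higher in value and inside 2-fold. The ratio was highest for the adaptor Traf6 (36.9 FPKM in the library labelled Aire-KO and 18.8 FPKM in the library labelled WT) and lowest, at a mean of 2 FPKM or more, for the ligand Lta (8.50 FPKM under the Aire-KO label and 14.4 FPKM under the WT label). The lower gene was the RANK ligand Tnfsf11, at 0.223 FPKM in the library labelled Aire-KO and 0.989 FPKM in the library labelled WT. Tnfrsf11a, Relb and Tnfsf11 were named after their values were seen.

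The genes of epidermal differentiation that follow Klf4, the epithelial Ets factors and Prdm1 in skin were mostly lower. Of 19 with a row, 14 were lower, 1 was higher and 4 were within 2-fold, with a median log2 ratio of -1.88; over all genes 20.5% were lower. Krtdap, a protein of the differentiating epidermis, was the most abundant, with 140.2 FPKM in the library labelled Aire-KO and 1087 FPKM in the library labelled WT. Krt1, the keratin of suprabasal epidermis, had 1.49 FPKM in the library labelled Aire-KO and 99.9 FPKM in the library labelled WT, a log2 ratio of -5.97. The desmosomal cadherin gene Dsg1a was the higher one, with 67.8 FPKM in the library labelled Aire-KO and 24.0 FPKM in the library labelled WT. Krt10 stands both in this list and in that of genes linked to Fezf2.

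**Figure D4:**
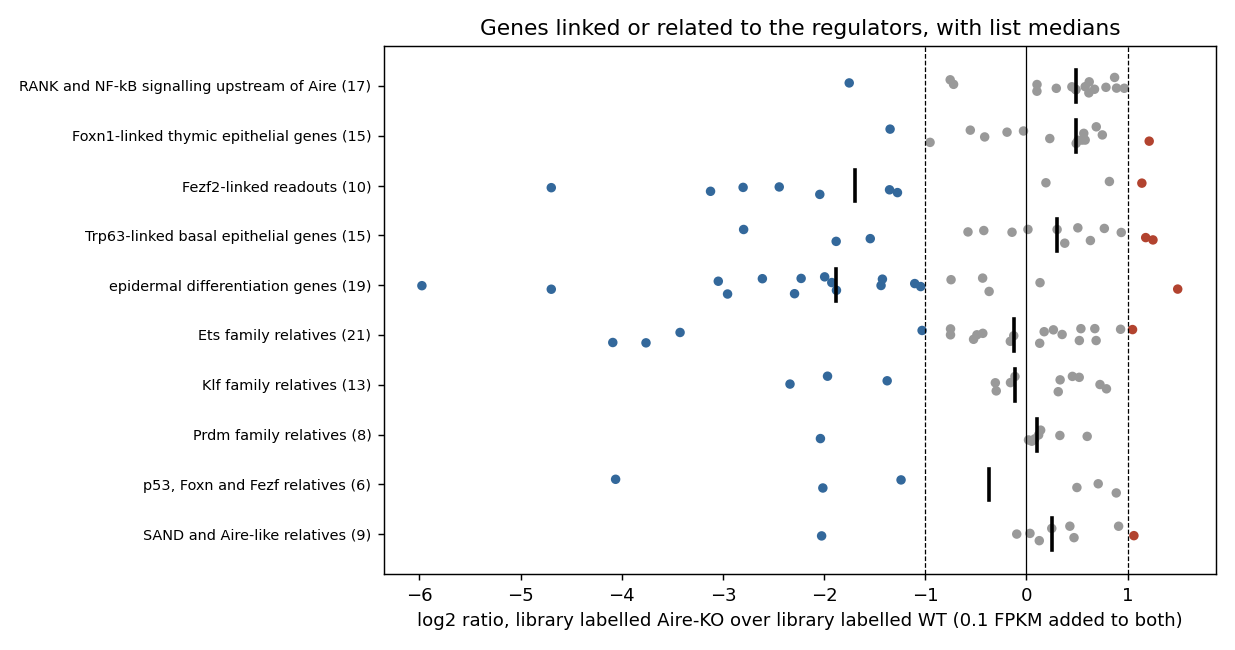
Each point is 1 gene past the minimum from the lists of linked genes and family relatives, placed by log2 ratio of the library labelled Aire-KO over the library labelled WT (0.1 FPKM added to both), with blue for lower, red for higher and grey for within 2-fold. Black bars mark list medians, which lie at -1.88 for epidermal differentiation genes and -1.70 for the Fezf2-linked list. They lie at 0.49 for both the signalling upstream of Aire and the Foxn1-linked genes.

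Relatives of the regulators were compared family by family. Of 21 other Ets factors past the minimum, 4 were lower (Spdef, Spi1, Etv4 and Fev), 1 was higher (Erg) and 16 were within 2-fold, with a median log2 ratio of -0.13. Spib, an Ets factor of lymphoid and mTEC lineages, led with 262.5 FPKM in the library labelled Aire-KO and 180.8 FPKM in the library labelled WT. Spdef, of goblet cells, had the lowest ratio with 0.257 FPKM in the library labelled Aire-KO and 4.73 FPKM in the library labelled WT. Erg, of endothelium, had 9.51 FPKM in the library labelled Aire-KO and 4.55 FPKM in the library labelled WT. The 4 of 21 lower relatives are close to the share over all genes, 20.5%.

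Of 13 other Klf factors past the minimum, 3 were lower (Klf1, Klf3 and Klf5), none was higher and 10 were within 2-fold, with a median log2 ratio of -0.11. The 3 of 13 lower are close to the share over all genes, 20.5%, and 7.09% of all genes were higher. Klf5, a factor of proliferating epithelia, had 5.01 FPKM in the library labelled Aire-KO and 25.7 FPKM in the library labelled WT. Klf3 had 6.67 FPKM in the library labelled Aire-KO and 17.5 FPKM in the library labelled WT. Klf6, the most abundant, had 390.4 FPKM in the library labelled Aire-KO and 225.7 FPKM in the library labelled WT, the highest ratio of the family at a log2 of 0.79. Klf4 and Klf6 thus differed in opposite directions.

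Of 8 other Prdm genes past the minimum, 1 was lower (Prdm14, 0.320 FPKM in the library labelled Aire-KO and 1.62 FPKM in the library labelled WT) and 7 were within 2-fold. The most abundant, Prdm2, had 13.1 FPKM in the library labelled Aire-KO and 10.4 FPKM in the library labelled WT. Of the 6 relatives of p63, Foxn1 and Fezf2, 3 were lower (Trp73, Foxn4 and Fezf1) and 3 were within 2-fold. Fezf1, the paralog of Fezf2, had 1.03 FPKM in the library labelled Aire-KO and 4.45 FPKM in the library labelled WT, and Trp53, with 86.5 FPKM under the Aire-KO label and 46.7 FPKM under the WT label, was the most abundant. Among 9 relatives of Aire with a SAND domain or PHD fingers, 1 was higher (Sp140), 1 was lower (Dpf3) and 7 were within 2-fold. Beside each count of these 3 groups of relatives, 20.5% of all genes past the minimum were lower and 7.09% were higher. Sp140, a nuclear body protein of leukocytes, had 30.6 FPKM in the library labelled Aire-KO and 14.6 FPKM in the library labelled WT. Sp100, the most abundant of them, had 43.4 FPKM in the library labelled Aire-KO and 23.0 FPKM in the library labelled WT, and Deaf1, which controls peripheral tissue genes in lymph nodes, had 5.86 FPKM under the Aire-KO label and 6.27 FPKM under the WT label.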

How the data were processed

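Polyadenylated RNA was sequenced in 1 library labelled Aire-KO and 1 labelled WT. The authors deposited FPKM values per gene and per isoform, with p-values and q-values from their own comparison of the 2 libraries. TopHat2, Cuffdiff and build mm10 are named, per the submitters' processing notes, without a version. Annotation, scaling and strand use: not given in the sources used here. Since the deposited values compare 2 libraries, the p-values and q-values are quoted only as the authors' own. Deposited fold changes were not used.

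Ratios were computed as log2 with 0.1 FPKM added, and calls used a 2-fold rule at a mean of 0.5 FPKM or more. The 5 genes with status HIDATA were treated as missing. The step worth 1 fragment was fitted to low values of 1-isoform genes of 2000 bp or more (9517 genes). In the library labelled Aire-KO 78.5% of 460 low values lay within 0.1 of a whole fragment, and in the library labelled WT 77.7% of 188; the step was fitted to the same values, so this does not test it. Exact Poisson intervals of FPKM and exact conditional binomial 95% intervals of the ratio, without pseudocount, follow from these fragments. They hold counting error alone: without molecular identifiers, fragments are no independent molecules. A count of 0 allows 3 fragments. The code of the 2-fold rule was run on simulated Poisson counts with planted changes. That simulation holds no variation between animals or libraries, so it does not test the calls made here. Isoform structures came from GENCODE M21 through its RefSeq links, gene coordinates and promoters from RefSeq on GRCm38.p6. Python 3.11.15, pandas 2.3.3, numpy 2.4.6, SciPy 1.17.1 and matplotlib 3.10.9 were used.

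The regulators, gene lists and markers were chosen with earlier results of these data known. Named genes are the 9 regulators; from each linked list the most abundant gene and those with the lowest and highest ratio at a mean of 2 FPKM or more; relatives past 2-fold at a mean of 5 FPKM or more; the nearest genes; and Epcam, H2-Aa, Ptprc and Cd3e. Other names were chosen after their values were seen, as were the comparisons of exon overlap, promoter motifs and neighbouring genes. Row names Igj and Emr1 were read as Jchain and Adgre1; Flg and Ccl21a had no row. Alternatives were other pseudocounts, scalings, minimum levels and fold rules, the sum of isoforms, and isoform shares by fragments.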

Additional observations from a re-analysis of the deposited data

How the results depend on the processing

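The 9 ratios were recomputed under 6 settings (2 other pseudocounts, 3 other scalings and the sum of isoform rows), which gave 54 values. None changed sign, and 53 stayed on the same side of 2-fold; the exception was Prdm1, at -0.91 with 1 FPKM added, which left 3 of the 9 lower. For Aire the log2 ratio of 1.54 became 1.46 when both libraries were scaled to the same total, 1.51 with upper quartile scaling and 1.48 when centred on the median of all genes (0.05). Under a 1.5-fold rule 5 of the 9 were lower and 2 higher (Aire and Foxn1). By that rule 4261 of all 15906 genes past the minimum were lower and 3065 higher. Under a 4-fold rule 1 of the 9 was lower (Elf5) and 0 higher. Of the 15906 genes, 1893 were then lower and 100 higher. The reported 2-fold rule gave 3260 lower and 1128 higher. With 1 FPKM added, 701 of all genes were higher. Genes called lower numbered 5180 without a minimum and 1804 when the minimum was raised to 2 FPKM. Of 180 recomputed list counts, 141 lay within 1.5 times the reported count. When 34 shares of isoforms and starts were recomputed from fragments, the largest moved by 7.70 percentage points. The regulators whose leading isoform differed numbered 2 also when isoforms under 1 FPKM were left out, and 1 (Foxn1) by share of fragments, an alternative chosen after seeing the data. No paired analysis was possible because each genotype has 1 library, which also means that no library could be left out and that the spread between animals is unknown.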

Other observations

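Some genes around Aire on chromosome 10 were higher along with it. Of 12 neighbours within 250 kb that passed the minimum, 3 were higher in the library labelled Aire-KO, none was lower and 9 were within 2-fold; 7.09% of all genes were higher. Dnmt3l, a regulator of DNA methylation, overlaps the 5′ part of Aire on the other strand. It had 111.5 FPKM in the library labelled Aire-KO and 25.7 FPKM in the library labelled WT, 4.34-fold higher. Since strand use in counting is not given, reads in the 67 exon bases shared with Aire cannot be assigned to either gene. Pfkl, the liver-type phosphofructokinase gene 20215 bp away, had 90.9 FPKM in the library labelled Aire-KO and 27.8 FPKM in the library labelled WT. Icosl, the ligand of the T cell costimulator ICOS, 25758 bp away, had 255.8 FPKM in the library labelled Aire-KO and 89.3 FPKM in the library labelled WT. The ion channel gene Trpm2 was 2.03-fold higher as deposited but inside 2-fold with 0.1 FPKM added, with 3.81 FPKM in the library labelled Aire-KO and 1.87 FPKM in the library labelled WT. These neighbours were looked at after the Aire values were seen, and no test was made.

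Neighbours of the other regulators included no gene called higher, and 20.5% of all genes were lower. Around Foxn1, 3 of 25 were lower, around Elf3 2 of 10, around Prdm1 1 of 2, around Elf5 1 of 3 (Abtb2), around Ehf 1 of 4 (Elf5 itself), and none of 3 around Fezf2 or of 1 each around Trp63 and Klf4. The catalase gene Cat, next to Elf5, had 29.0 FPKM in the library labelled Aire-KO and 35.1 FPKM in the library labelled WT. The log2 ratios of the 3 neighbours of Elf5 past the minimum were -0.27 (Cat), -0.63 (Ehf) and -1.16 (Abtb2).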
